A study of Mus musculus with 47 samples.

Results

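The genes described here form the machinery of G2 phase and mitosis. A list of 40 genes was read, and 38 of them were present in the deposited table of allelic counts, which holds 13947 genes. Mki67 and Nusap1 were the 2 listed genes without a row. Of the 38 members, 34 averaged 5 or more counts per cell and were used wherever genes were compared. Ect2, which acts at the division site in cytokinesis, had 6 counts in 3 cells, and Smc4, a condensin subunit, had 9 counts in 3 cells. Tpx2, a spindle assembly factor, had 165 counts in 29 cells, and G2e3, a ubiquitin ligase named for its G2 expression, had 78 counts in 18 cells.

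The cells were 47 single mouse induced pluripotent stem cells (iPSCs) of 1 plate. They were derived from female embryonic fibroblasts of a cross between a musculus (Mus) mother and a castaneus (Cast) father. The mother carried X-eGFP, a green fluorescent protein transgene on the X chromosome. In the paper, allelic reads were assigned to Mus or Cast by SNPs of an SvImJ and a CAST_EiJ strain, respectively. The cells were reprogrammed with OSKM factors from a lentiviral vector. All cells share this genotype and this treatment. The names of the columns give each cell 1 of 3 classes from its X chromosomes, namely 23 X-Mus X-Cast cells with both X chromosomes (XX cells), 15 X-Cast O-Mus cells without the Mus X and 9 X-Mus O-Cast cells without the Cast X. No animal, clone or culture is named for a cell, so the cells of a class are not replicates of a condition, and no test between classes was possible. None of the members lies on the X chromosome.

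In the cell cycle, CDK1 bound to cyclin B starts mitosis, while Aurora and Polo-like kinases build the spindle and the checkpoint kinases hold anaphase back until every kinetochore is attached. CDC20 and UBE2C then serve the anaphase promoting complex, a ubiquitin ligase that marks cyclin B for destruction. Transcripts of these genes accumulate in G2 and mitosis and are low in G1, so that a population of cycling cells holds cells with high and with low levels. Mouse pluripotent stem cells divide fast and spend little of their cycle in G1. Many promoters of this group carry a cell cycle genes homology region, with the core TTTGAA, which is bound by the MuvB complexes, and CCAAT boxes, which are bound by NF-Y.

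The promoters of 6 members are printed because the results turn on these genes. Cenpf, Ube2c, Aurka, Plk1 and Ccnb1 were among the 6 members whose levels followed the other members most closely, and Cdk1 passed a log2 fold of 1 in a single class comparison. Each run holds 250 bases before and 50 bases after the annotated start, 5′ to 3′ on the strand of the gene, from RefSeq on GRCm38.p6. Capitals mark TTTGAA and CCAAT on either strand, so that TTCAAA and ATTGG are marked too. The run CCAATTGG in Ube2c holds an overlapping match on each strand. The positions are chr1:189688037-189688336 on the minus strand for Cenpf, chr2:164769679-164769978 on the plus strand for Ube2c, chr2:172370521-172370820 on the minus strand for Aurka, chr7:122159185-122159484 on the plus strand for Plk1, chr10:69352863-69353162 on the minus strand for Cdk1 and chr13:100786437-100786736 on the minus strand for Ccnb1.
Cenpf: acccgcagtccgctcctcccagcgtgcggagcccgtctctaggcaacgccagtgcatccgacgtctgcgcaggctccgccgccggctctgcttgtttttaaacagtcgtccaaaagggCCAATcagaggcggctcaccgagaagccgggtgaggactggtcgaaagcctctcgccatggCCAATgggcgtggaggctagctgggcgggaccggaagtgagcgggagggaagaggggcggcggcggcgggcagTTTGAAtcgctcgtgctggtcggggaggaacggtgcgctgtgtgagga
Ube2c: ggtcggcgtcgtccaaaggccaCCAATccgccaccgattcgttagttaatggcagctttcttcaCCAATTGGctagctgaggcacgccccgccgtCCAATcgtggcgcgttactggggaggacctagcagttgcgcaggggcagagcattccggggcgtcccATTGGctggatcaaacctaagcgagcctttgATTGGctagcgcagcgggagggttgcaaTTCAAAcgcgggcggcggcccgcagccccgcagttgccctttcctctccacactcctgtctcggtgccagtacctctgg
Aurka: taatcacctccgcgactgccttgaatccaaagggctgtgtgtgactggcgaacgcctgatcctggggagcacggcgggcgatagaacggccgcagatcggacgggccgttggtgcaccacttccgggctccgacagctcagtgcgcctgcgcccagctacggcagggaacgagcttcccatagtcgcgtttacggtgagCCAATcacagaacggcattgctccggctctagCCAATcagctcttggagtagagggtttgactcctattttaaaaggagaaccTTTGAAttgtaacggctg
Plk1: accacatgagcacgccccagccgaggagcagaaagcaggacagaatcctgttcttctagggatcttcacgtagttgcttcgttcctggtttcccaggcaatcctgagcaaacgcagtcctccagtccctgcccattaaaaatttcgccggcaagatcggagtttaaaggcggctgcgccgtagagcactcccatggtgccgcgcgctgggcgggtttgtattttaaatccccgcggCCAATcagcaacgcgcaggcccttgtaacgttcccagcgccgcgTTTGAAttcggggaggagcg
Cdk1: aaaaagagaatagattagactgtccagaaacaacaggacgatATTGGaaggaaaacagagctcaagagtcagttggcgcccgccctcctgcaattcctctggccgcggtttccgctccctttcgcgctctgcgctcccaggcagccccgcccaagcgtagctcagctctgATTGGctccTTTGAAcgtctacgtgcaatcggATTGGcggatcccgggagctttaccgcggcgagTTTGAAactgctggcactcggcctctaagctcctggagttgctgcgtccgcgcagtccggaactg
Ccnb1: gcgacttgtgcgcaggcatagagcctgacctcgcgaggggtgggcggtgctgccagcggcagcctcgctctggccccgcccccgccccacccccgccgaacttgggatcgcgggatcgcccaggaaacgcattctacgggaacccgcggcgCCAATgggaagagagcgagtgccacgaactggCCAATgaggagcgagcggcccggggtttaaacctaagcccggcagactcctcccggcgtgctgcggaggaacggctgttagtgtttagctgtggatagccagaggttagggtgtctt

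Promoter entries matched 35 of the 40 listed genes by symbol. The unmatched genes were Aurkb, Cdc25c, Tpx2, Dlgap5 and Smc4. TTTGAA was found in 25 of the 35 (71.4%), against 17.9% of all 32851 promoters of the same length and 16% of the 3327 genes that had a promoter and averaged 5 or more counts. Counted per gene over all 27025 genes with a promoter, the share was 20.2%. CCAAT was found in 26 of the 35 (74.3%), against 41.1% of all genes with a promoter and 45.6% of those that averaged 5 or more counts. Both motifs were found in 21 genes (60.0%), against 7.97% and 7.21% of these genes. In a list of other G2 and mitosis genes, TTTGAA was found in 27 of 43 (62.8%), while in a list of S phase genes it was found in 6 of 39 (15.4%). CCAAT separated these lists less, with 32 of 43 (74.4%) and 24 of 39 (61.5%). The TTTGAA match nearest to the start lay between -123 and 40, with a median of 2, counting the first base of the motif from the annotated start, and 21 of 25 lay within 60 bases of it. Ccnb1, encoding cyclin B1, and Cenpe, encoding a kinetochore motor, had no TTTGAA in this window, although their levels followed the other members closely. Members with and without TTTGAA had similar correlations with the other members, with a median Spearman correlation of 0.39 over 23 members and 0.43 over 8 members. A match is a description of the letters only.

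The level of a gene in a cell is given as allelic counts per 10000 allelic counts of that cell, with Cast and Mus counts added. Cells held 71682 to 216451 allelic counts, with a median of 167041, and 2918 to 5799 genes with a read. The cell of 71682 counts, an X-Mus O-Cast cell, stood apart as the shallowest. The cells carried the pluripotent identity of their label. Of 16 pluripotency markers, 12 had reads in at least 40 cells and the summed level was 47.6 to 137, whereas the 14 fibroblast markers in the table summed to 0 to 2.11, and 7 of them had no read in any cell. Endoderm and primed markers summed to 0.42 to 11.7. Levels are not comparable between genes, because a gene with more polymorphic positions is counted more often. Reads were not counted as molecules, and a read across several of these positions may have been counted more than once, so intervals cover counting error only and are too narrow.

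The 38 members together took a level of 49.0 in the lowest cell, 85.9 in the median cell and 193 in the highest, a 3.95-fold range with a coefficient of variation (CV) of 34.9%. Between 22 and 36 of the members had a read in a cell, with a median of 32. The 4 cells with the highest sums came from all 3 classes, and the order of the cells did not separate the classes. Cells with a high sum did not have deeper libraries, since the Spearman correlation with the allelic counts of the cell was 0.07. They did have more genes with a read (correlation = 0.51, and 0.52 without the shallowest cell), and the main correlations are therefore also given with depth and genes with a read held fixed. The correlation with the mitochondrial share of counts was -0.09. Medians over plate rows were 71.0 to 120 and over plate columns 78.3 to 123.

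**Figure D1:**
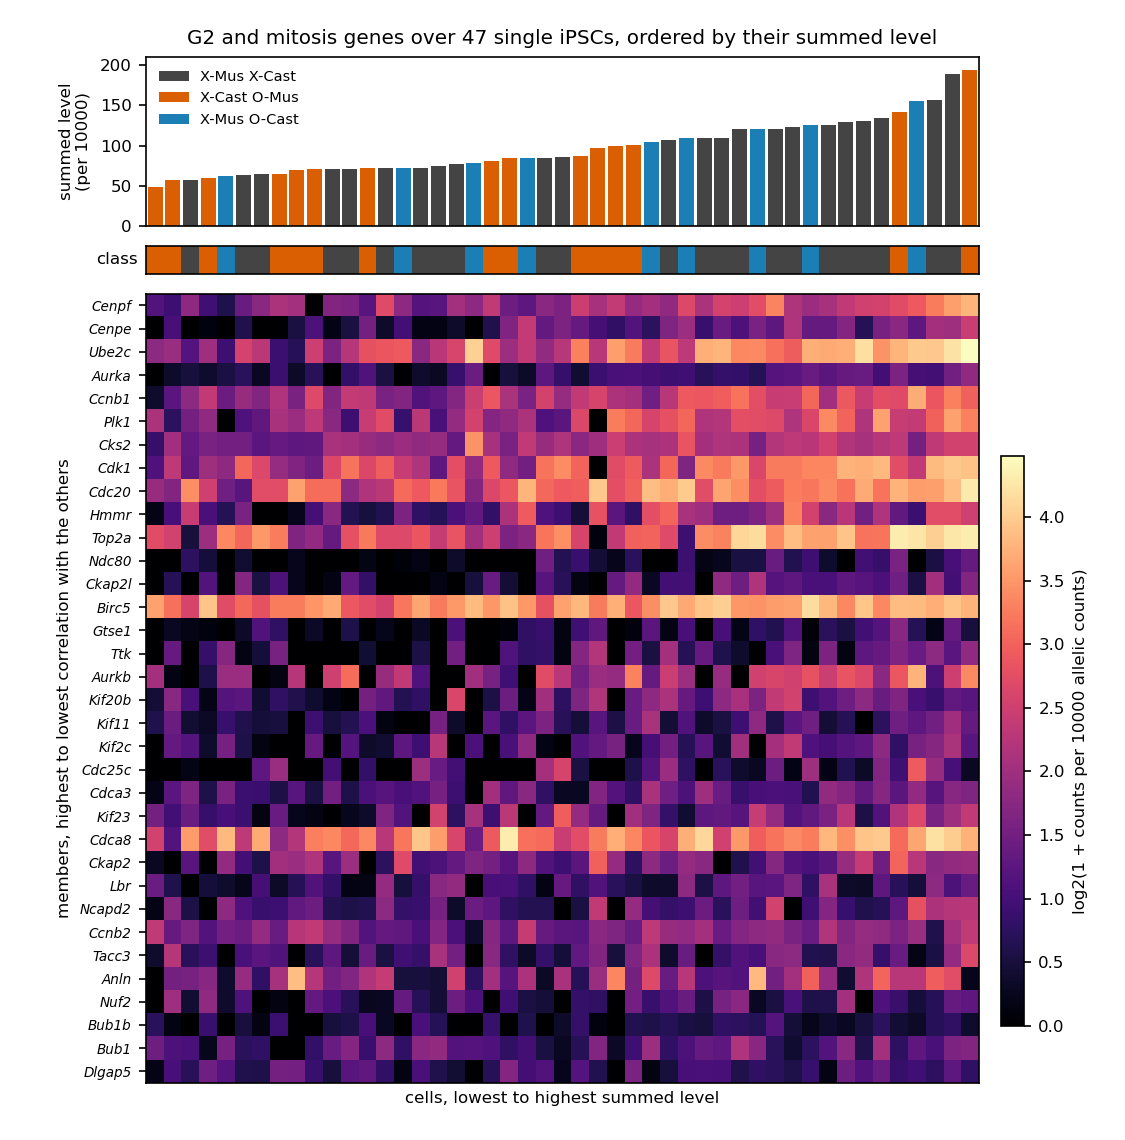
Bars at the top give the summed level of the 38 members in each of 47 cells, coloured by class, and the heat map gives log2(1 + level) of the 34 members that passed the count filter. Cells run from the lowest sum (49.0) to the highest (193), and rows from Cenpf to Dlgap5 by their correlation with the other members. Cenpf, Ube2c and Cdk1 brighten to the right, while Dlgap5 and Bub1 do not.

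Members differed in how much they varied over the cells. The CV of the 34 members ranged from 29% to 146%, with a median of 80.6%, against 93.7% over all 4149 genes that passed this count filter. The members had a higher mean level than all genes, with medians of 1.49 and 0.82, and low genes vary more in sparse counts. Each CV was therefore divided by the running median CV of genes of like mean level. The quotient had a median of 1.11, and 21 of 34 members lay above 1, as did 2072 of all 4149 genes. It was highest for Anln (1.78), encoding the cytokinetic ring protein anillin, Aurkb (1.69), the kinase of the chromosomal passenger complex, and Ube2c (1.64), the E2 enzyme of the anaphase promoting complex. It was lowest for Bub1b (0.60), encoding the checkpoint protein BUBR1, Ccnb2 (0.67), encoding cyclin B2, and Dlgap5 (0.69), which encodes a spindle protein.

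Birc5, encoding survivin of the passenger complex, had reads in all 47 cells with a level of 4.95 in the lowest cell, 10.5 in the median and 17 in the highest, and had the smallest CV of the members (29%). Cdc25c, the phosphatase that activates CDK1, had the largest (146%), with reads in 30 cells and a level of 0 in the lowest cell, 0.30 in the median and 6.64 in the highest. These were the extremes of a list in which 12 members had a read in at least 46 cells, among them Ccnb1, Cks2, Cdc20, Top2a and Cdca8.

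The members varied together over the cells. Over the 561 pairs of the 34 members, the Spearman correlation over 47 cells had a median of 0.20 and was positive in 88.1%, while over all 8605026 pairs of the 4149 genes the median was 0.01 and 53.0% were positive. The correlation was at least 0.3 in 29.9% of the pairs of members and in 2.91% of all pairs. Pairs within the list of other G2 and mitosis genes had a median of 0.063, with 5.69% at 0.3 or above. Pairs within the S phase list were similar to these, with a median of 0.065 and 5.97%. The limit of 0.3 was chosen after the values were seen, and the points are cells that share a plate and a total, by which each value was divided. Each member was also set against the sum of the others. Here 33 of 34 members were positive, as were 60.4% of all 4149 genes, with a median of 0.40, and 24 reached 0.3, against 6.27% of all genes, while 0 members were at -0.3 or below, against 1.49% of all genes. With depth and genes with a read held fixed, the median over pairs of members was 0.12 and 19 members reached 0.3 with the others, values that were not computed for all genes.

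The closest followers came from several parts of the machinery. Cenpf, a kinetochore protein, had a level of 0 in the lowest cell, 3.12 in the median and 12.9 in the highest, and its correlation with the other members was 0.75. Cenpe, the kinetochore motor, followed with 0.72 and levels of 0, 1.14 and 4.42 in the same order. Ube2c had levels of 0.62, 5.98 and 21.3 and a correlation of 0.71. Aurka, the spindle pole kinase, had levels of 0, 0.80 and 2.54 and a correlation of 0.69. Cyclin B1 and Polo-like kinase were close to these. Ccnb1 had levels of 0.29, 4.17 and 11.9 with a correlation of 0.68, and Plk1 had 0, 3.65 and 11.3 with a correlation of 0.64. Next came Cks2 (0.63), encoding a small CDK-binding protein, Cdk1 (0.58), Cdc20 (0.57), Hmmr (0.53), encoding a spindle protein, Top2a (0.52), encoding the topoisomerase that untangles chromosomes, and Ndc80 (0.50), encoding the kinetochore subunit that holds microtubules.

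At the other end stood Dlgap5, with levels of 0, 0.79 and 2.25 and a correlation of -0.00. Bub1, a checkpoint kinase, had levels of 0, 1.13 and 3.49 with a correlation of 0.13. Bub1b had levels of 0, 0.41 and 1.26 with a correlation of 0.15, and Nuf2, the partner of NDC80 in its complex, had 0, 0.63 and 3.09 with a correlation of 0.18. Over all cells, Bub1b had 332 counts, Dlgap5 704, Nuf2 719 and Bub1 997, and the part of these low counts in the weak correlations was not tested. Nuf2 and Ndc80, whose products form a dimer, thus differed in correlation (0.18 and 0.50).

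By role, the 11 mitotic kinases and their partners had a median correlation of 0.41, with 8 at 0.3 or above, and the 6 kinetochore and passenger genes a median of 0.47, with 5 at 0.3 or above. The 10 tested genes of spindle assembly and motors had a median of 0.37, with 7 at 0.3 or above, namely Hmmr, Ckap2l, Gtse1, Kif20b, Kif11, Kif2c and Kif23, while Ckap2 (0.27), Tacc3 (0.19) and Dlgap5 were lower. All 3 tested genes of the ubiquitin and anaphase group, Ube2c, Cdc20 and Cdca3 (0.35), were above 0.3. In the chromosome structure and nuclear envelope group, Top2a passed 0.3, whereas Ncapd2 (0.25), a condensin subunit, and Lbr (0.27), the lamin B receptor, did not. Anln, the tested cytokinesis gene, had a correlation of 0.18.

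The highest correlation between 2 members was that of Cenpf and Ube2c (0.69), followed by Cdk1 and Top2a (0.68) and by Ccnb1 and Ube2c (0.67). The lowest was that of Dlgap5 and Lbr (-0.28). Of the 10 closest pairs, 7 have Ube2c or Cenpf as a partner.

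Genes outside the list were ranked in the same way. Among 4115 non-members, Arl6ip1, a membrane-shaping protein of the endoplasmic reticulum, was highest (0.68), followed by Bub3 (0.67), the checkpoint partner of BUB1, Kpna2 (0.65), an importin, Tuba1c (0.62), an alpha tubulin, Rhno1 (0.57), a factor of the replication checkpoint, Spc25 (0.53), a subunit of the NDC80 complex, Fzr1 (0.51), the other activator of the anaphase promoting complex, and Pdcd2l (0.51). Lowest were Chaf1b (-0.51), a chromatin assembly subunit of S phase, Srsf3 (-0.49), a splicing factor, Fam111a (-0.48), a protease that acts at replication forks, Calr (-0.44), a chaperone, and Pcna (-0.43), the replication clamp.

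A list of 60 other G2 and mitosis genes gave 38 tested genes with a median correlation of 0.28. Of these, 15 reached 0.3 and 0 were at -0.3 or below, against 6.27% and 1.49% of all 4149 genes, shares that apply to the lists below too. The 5 genes named from this list, those with the highest mean level, differed, with Cenpa, the centromeric histone, at 0.46 and Spc25 at 0.53, but Pttg1, encoding securin, at 0.22, Cks1b at 0.06 and Spc24 at -0.16. In 38 tested S phase genes the median was -0.08, with 0 at 0.3 or above and 4 at -0.3 or below, namely Chaf1b, Pcna, Uhrf1 (-0.40) and Fen1 (-0.31). The 5 S phase genes named by the same rule were Cdt1 (-0.01), Tipin (-0.22), Ccne1 (-0.24), Pcna and Nasp (-0.14). Among 15 pluripotency markers the median was 0.08, and Pecam1 alone passed 0.3 (0.35), while Tdgf1 (0.08), Zfp42 (0.29), Tfcp2l1 (0.13), Dppa3 (-0.14) and Tet1 (0.02) were the 5 named by the same rule. Dnmt3b (-0.23) and Lama1 (0.08) were the 2 tested genes of the endoderm and primed list.

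**Figure D2:**
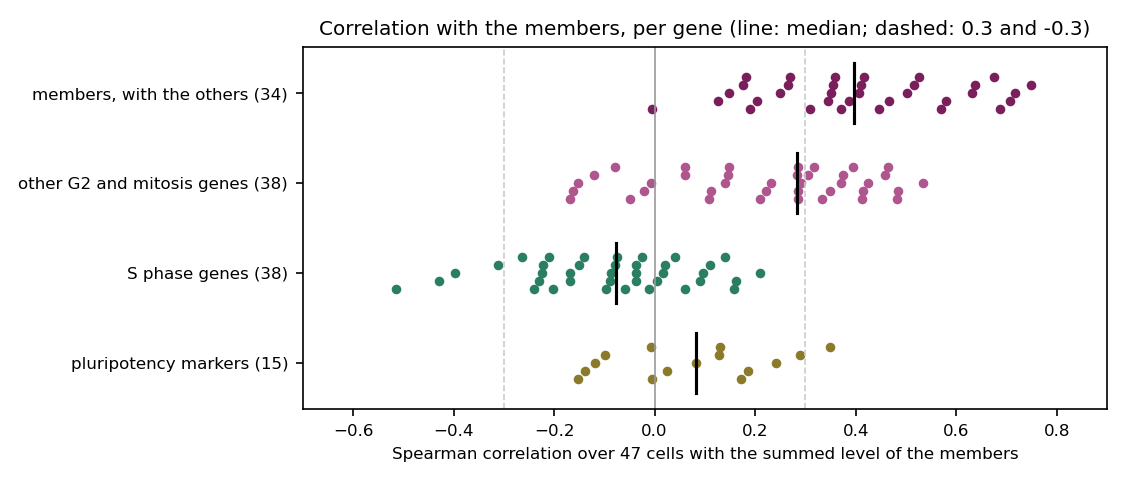
Each point is a gene that passed the count filter, placed by its Spearman correlation over 47 cells with the summed level of the members, for a member the sum of the others. The members (median 0.40) and the other G2 and mitosis genes (0.28) lie mostly right of 0, and the S phase genes (-0.08) mostly left of it.

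The 2 alleles offer separate readings of the same cell, because a Cast read and a Mus read come from different DNA copies. Summed over the members, the Cast level was 24.7 in the lowest cell, 49.6 in the median and 107 in the highest, and the Mus level 24.2, 42.2 and 86.3. The correlation between the sums over 47 cells was 0.83. It was 0.78 in the 23 XX cells, 0.66 among the 15 X-Cast O-Mus cells and 0.97 among the 9 X-Mus O-Cast cells, and 0.79 over all cells with depth and genes with a read held fixed. When the Cast level of every other member was set against the Mus level of the remaining members, so that no gene was in both sums, the correlation was 0.66, and 0.59 with the alleles exchanged. Cells with a high level of these genes on the Cast allele thus tended to have a high level on the Mus allele. The correlation between summed alleles was not computed for other lists or for all genes, so it cannot be called particular to the members.

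The S phase list moved the other way. Its summed level had a correlation of -0.45 with that of the members, and -0.42 and -0.39 when the members were read from the Cast or the Mus allele and the S phase genes from the opposite allele. With depth and genes with a read held fixed it was -0.33. The sum of the other G2 and mitosis genes had a correlation of 0.58 with the members, and of 0.55 and 0.59 between opposite alleles.

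**Figure D3:**
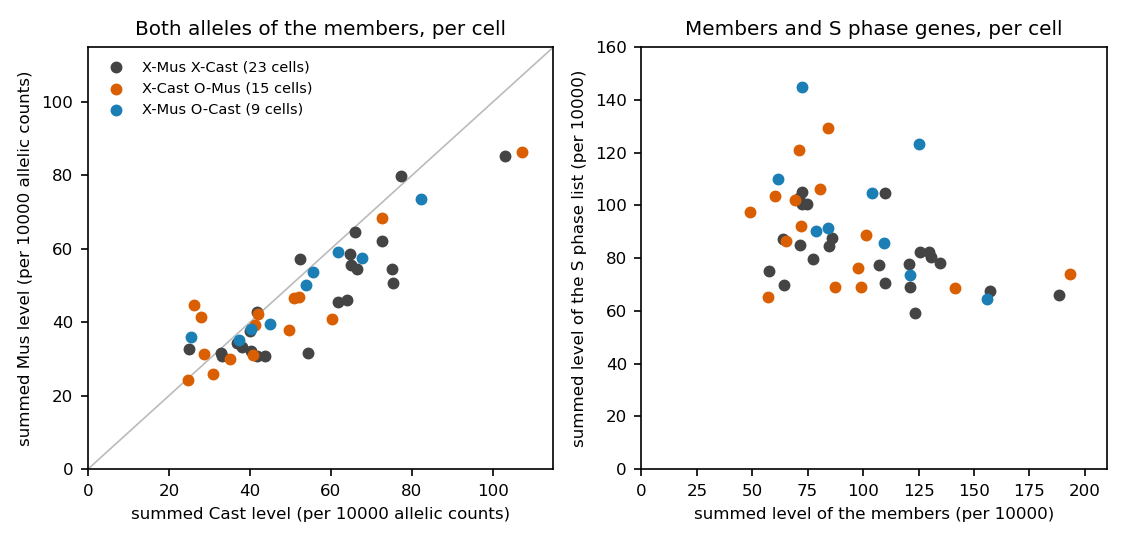
Left, the summed Cast level against the summed Mus level of the members in each cell, with the line of equal levels (correlation = 0.83 over 47 cells). Right, the summed level of the members against that of the S phase list (correlation = -0.45), in which the 4 cells with the highest member levels all lie below the median S phase level.

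Gene by gene, 32 members averaged 2 or more counts on each allele. The correlation between the Cast and the Mus level of the same member had a median of 0.36, was positive in 31 of 32 and reached 0.3 in 21, while over all 3658 genes with such counts the median was 0.20, 86.9% were positive and 30.4% reached 0.3. Between the Cast allele of a member and the Mus allele of another, the median over 992 pairs was 0.17, against 0.01 over all genes. The alleles of Ube2c were closest (0.80), followed by those of Top2a (0.78) and Cdk1 (0.65). Top2a had a total level of 0.10 in the lowest cell, 7.14 in the median and 19 in the highest, so that a cell low on the Cast copy of this gene tended to be low on the Mus copy. Lowest were Dlgap5 (-0.10), Anln (0.10) and Birc5 (0.14).

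Members whose alleles correlated weakly with each other differed in how each allele followed the rest. Dlgap5, with the lowest value, had a correlation of 0.00046 between its Cast level and the Mus sum of the other members and of 0.16 with the alleles exchanged. For Cenpf the alleles had a correlation of 0.17 with each other, while its Cast level had 0.57 with the Mus sum of the other members and its Mus level 0.61 with the Cast sum. Anln had 0.32 and 0.20 in these measures. In Cdca8, a passenger complex subunit, the Cast level followed the Mus sum of the others (0.52) and the Mus level hardly followed the Cast sum (0.05), and Ckap2, encoding a spindle protein, was similar (0.45 and 0.09). Over the 32 members the values ran from 0.00046 to 0.62 and from 0.03 to 0.73, with medians of 0.38 and 0.39.

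Allelic share is the Mus part of the counts of a gene over all cells. The median of the 34 members was 46.7%, close to 45.9% of 4033 autosomal genes, with 18 members above and 16 below that median. Between 40% and 60%, a band chosen after the values were seen, lay 17 members, against 50.1% of all autosomal genes. The members span a wide range. Plk1 was read almost only from Cast, with a Mus share of 5.79% (95% exact binomial interval 5.01 to 6.65%) over 3264 counts, and 12 of the 45 cells with at least 10 counts had Cast counts only. Ckap2l, a spindle protein, had 7.02% (5.27 to 9.13%) and Bub1b 7.83% (5.18 to 11.3%). These 3 members lay under 10%, as did 6.00% of all autosomal genes. At the other end, Ccnb1 had a Mus share of 88.4% (87.2 to 89.4%) over 3274 counts, and 6 of 46 cells had Mus counts only. Anln had 69.0% (67.1 to 70.8%) and Gtse1, a regulator of p53 in G2, 64.3% (59.5 to 68.9%).

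Members that leaned to an allele were found at both ends of the order by correlation with the others. Ccnb1 and Plk1, at opposite ends of the range of shares, had 0.68 and 0.64, and Ckap2l had 0.47. The 4 members with the weakest correlation leaned to Cast, namely Dlgap5 (14.3% Mus, correlation -0.00), Bub1 (27.4%, 0.13), Bub1b (7.83%, 0.15) and Nuf2 (18.1%, 0.18), and Anln, which leaned to Mus (69%), had 0.18. The counts given to the minor alleles, 381 Cast counts for Ccnb1 and 189 Mus counts for Plk1, also correlated with the others. The Cast level of Ccnb1 had a correlation of 0.54 with the Mus sum of the other members, and the Mus level of Plk1 one of 0.47 with their Cast sum. Whether reads of the major allele were assigned to the minor one was not tested. Ccnb1 and Ccnb2 each have an annotated pseudogene of their name, and reads of such copies may be shared, so their shares are uncertain. Cdc20, Ube2c, Tacc3, Lbr, Cdca8 and Cdc25c overlap other annotated coding genes, and whether strand was used in counting is not given in the sources used here. The 3 members on chromosome 1, Cenpf (34.2%), Lbr (25.9%) and Nuf2 (18.1%), stood on a chromosome whose median Mus share over 304 genes was 31.8%, the lowest of the chromosomes with a member.

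**Figure D4:**
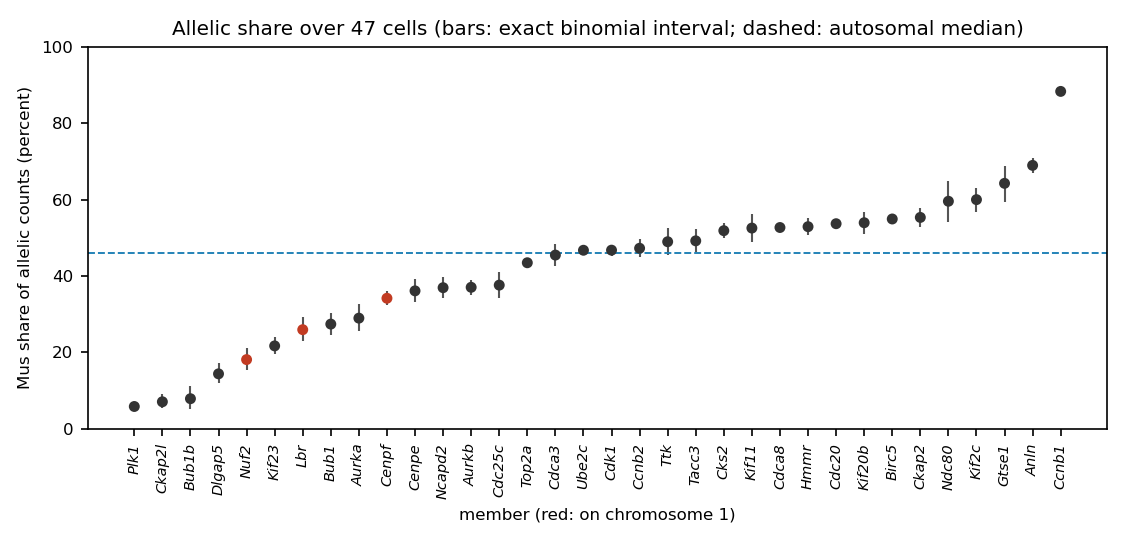
Mus share of the allelic counts of each member over 47 cells, with its 95% exact binomial interval for counting error. The members run from Plk1 (5.79%) to Ccnb1 (88.4%), and the 3 on chromosome 1, in red, lie below the autosomal median of 45.9% (dashed line).

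In single cells the counts of a member could be from Cast only or from Mus only. Reads were not counted as molecules, so the part of sampling in such cells was not tested, and their rate over all genes was not computed. Cenpf had at least 10 counts in 45 cells, of which 3 had Cast counts only and 2 Mus counts only, while Aurkb had 36 such cells with 3 of each kind. The Cast-only Cenpf cells had 35 to 60 counts and the Mus-only ones 18 and 19. The Aurkb cells with a single allele had 28 to 80. Cks2, Birc5, Ube2c and Cdc20 had both alleles in every cell with at least 10 counts. Summed over all members, the Mus share of a cell was 36.8% to 63.1%, with a median of 47.6%. The pooled share of Aurkb was 31% in XX cells, 58.5% for X-Cast O-Mus and 22.1% for X-Mus O-Cast cells, over reads in 38 cells in all. Single cells weighed heavily in it. Cell 3 held 193 of 744 counts of the X-Cast O-Mus cells, and cell 37 held 189 of 593 counts of the X-Mus O-Cast cells. Its share in single cells ran from 0 to 100%. The difference between classes was not tested or set beside that of all genes.

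The 3 classes were compared to ask whether loss of an X chromosome went with a different level of these autosomal genes. The summed level was 57.6 in the lowest XX cell, 107 in the median and 188 in the highest. For X-Cast O-Mus cells it was 49.0, 80.4 and 193, and for X-Mus O-Cast cells 61.7, 104 and 156. The ranges overlapped almost fully, and the ratio of medians to XX cells was 0.75 for X-Cast O-Mus and 0.97 for X-Mus O-Cast cells. Over the pooled counts of each class the levels were 102 (95% Poisson interval 101 to 103), 89.9 (88.7 to 91.0) and 102 (101 to 104) per 10000, intervals that cover counting error and leave out the much larger spread between cells. Of the 15 X-Cast O-Mus cells, 13 were below the XX median, and the cell with the highest sum of all was nevertheless among the other 2.

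Folds of single members were taken between mean levels, and a log2 fold of 1 in either direction was counted. For X-Cast O-Mus relative to XX cells, the median log2 fold of the 34 members was -0.11, against 0.01 over all 4134 genes, with 11 members above and 23 below 0, while 51.3% of all genes were above 0. None of the members was higher by that fold, as 6.77% of all genes were, and 1 was lower, as 6.31% of all genes were. For X-Mus O-Cast relative to XX cells the median was -0.04, against 0.02 over 4093 genes, with 16 members above and 18 below 0 and 51.2% of all genes above 0. Here 0 members were higher, against 8.62% of all genes, and 1 was lower, against 10.2%. Both comparisons share the 23 XX cells.

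Cdk1 was the member past that fold in X-Mus O-Cast cells, and it did not pass in X-Cast O-Mus cells. Its level was 1.44 in the lowest XX cell, 8.49 in the median and 14.7 in the highest. For X-Cast O-Mus cells these values were 0, 3.97 and 14, and for X-Mus O-Cast cells 1.87, 3.35 and 9.22. The ranges overlapped, yet 14 of 15 and 8 of 9 cells lay below the XX median. The log2 folds were -0.87 and -1.07, and the pooled levels 8.30 (8.01 to 8.59), 4.57 (4.31 to 4.84) and 3.98 (3.66 to 4.32) per 10000. Without any single cell of its comparison the second fold was between -1.34 and -0.98. It was -0.99 without cell 10 and -0.98 without cell 18, both X-Mus O-Cast cells, and -0.98 with every cell thinned to 71682 counts, so that it no longer passed. By allele, the mean Cast level was 4.37, 2.49 and 2.36 and the mean Mus level 3.92, 2.04 and 1.58 in the order of the classes above.

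The partners of CDK1 had smaller folds. Ccnb1 had medians of 4.24, 4.03 and 4.46 in the same order, with log2 folds of -0.10 and 0.20, and Cks2 had medians of 3.30, 2.78 and 3.23, with log2 folds of -0.21 and 0.35. Top2a, the member closest to Cdk1 over the cells, had medians of 8.17, 4.82 and 7.14 and log2 folds of -0.48 and -0.11. The genes of chromosome 10, on which Cdk1 lies, had median sums of 344, 337 and 377 per 10000 in the 3 classes. Some other measures moved with the classes. The list of other G2 and mitosis genes had medians of 83.3, 90.8 and 104 and means of 89.6, 89.5 and 103. The S phase list had medians of 80.2, 88.7 and 91.5, the pluripotency markers 97.2, 80.8 and 83.6, the mitochondrial share 22.9%, 22.9% and 18.4%, and genes with a read 5022, 4888 and 4862. The endoderm and primed list had medians of 1.60, 2.26 and 4.44. The part of these in the level of Cdk1 was not tested.

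Cdc25c was lower in X-Cast O-Mus cells, with a log2 fold of -1.72 and a range of -2.60 to -1.50 when each cell was left out in turn. Its level was 0 in the lowest XX cell, 0.97 in the median and 5.08 in the highest, against 0, 0 and 2.83 in X-Cast O-Mus cells, of which 14 of 15 were below the XX median. Pooled levels were 1.27 (1.16 to 1.39) and 0.42 (0.34 to 0.51) per 10000. In X-Mus O-Cast cells the level was 0, 0.22 and 6.64 with a log2 fold of 0.06, which rested on the highest cell, since it fell to -0.98 when that cell was left out.

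**Figure D5:**
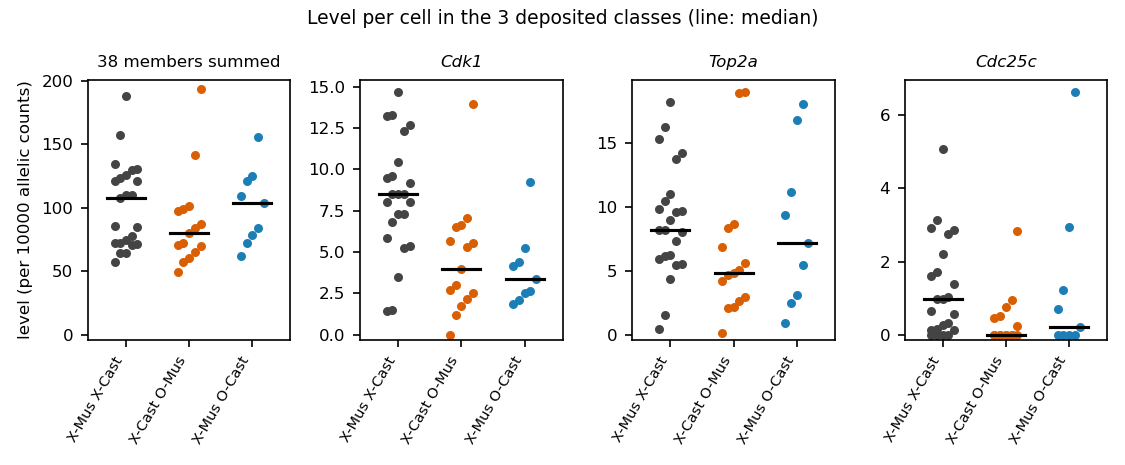
Level per 10000 allelic counts in each cell of the 3 classes, for the 38 members summed and for Cdk1, Top2a and Cdc25c, with the median as a line. The sums overlap almost fully, while the medians of Cdk1 are 8.49, 3.97 and 3.35 and those of Cdc25c 0.97, 0 and 0.22.

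The remaining members stayed within a log2 fold of 1 in both comparisons. The highest were Ckap2 (0.52) in X-Cast O-Mus cells and Kif11, the motor that separates the spindle poles, in X-Mus O-Cast cells (0.84). The lowest after Cdk1 and Cdc25c were Kif2c (-0.92), a microtubule depolymerase, and Hmmr (-0.84) in X-Cast O-Mus cells, then Ndc80 (-0.83) and Lbr (-0.76) in X-Mus O-Cast cells. Several of these calls turned on 1 cell. Hmmr reached -1.08 and -1.19 without cell 1 or cell 15, Kif2c reached -1.02 to -1.09 without cell 2, 15, 16 or 46, and Cdk1 reached -1.11 without cell 1, all X-Cast O-Mus cells. Kif11 reached 1.04 without cell 8, an XX cell, and 1.01 without cell 12 or cell 27. Ndc80 reached -1.38 without cell 10 and -1.37 without cell 24, Lbr -1.26 without cell 10, Ttk, a checkpoint kinase, -1.09 without cell 6, Tacc3 -1.15 without cell 17 and Ckap2l -1.36 without cell 19, all X-Mus O-Cast cells.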

How the data were processed

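The authors deposited whole-number allelic read counts per gene for 47 cells of 1 plate, with a Cast and a Mus column per cell and no normalization. Per the labels and methods, mRNA of sorted cells was captured and amplified, sequenced in single-end mode and aligned (STAR 2.5.3a and SAMtools, mm10), and genes with at least 4 SNPs were kept. Values of 1 were rarer than values of 2 (15660 and 46373 entries), so a read over several SNPs may count more than once. The members and gene lists were chosen with earlier results of these data known. Each count was scaled to 10000 allelic counts of its cell. Spearman correlations (every correlation given is of this kind unless named otherwise), CV, Mus shares with exact binomial intervals, exact Poisson intervals and log2 folds of class means were computed in Python 3.11.15 with numpy 2.4.6, pandas 2.3.3 and scipy 1.17.1, for genes that averaged 5 or more counts (2 on each allele). A class without counts was set to 3 counts over the class. Steps were tested on simulated data. Positions are from GENCODE M21 and RefSeq. All members may be named. Full values are given for the 6 highest and 4 lowest by correlation with the others, the 3 highest and lowest by correlation between alleles and by Mus share, those past a log2 fold of 1, the 8 highest and 5 lowest non-members and the 5 genes of each other list with the highest mean. Members named for their leave-out folds, and those used to contrast these, were chosen after their values were seen. Alternatives were other denominators, filters, thinning to 71682 counts, Pearson r, partial correlation and single classes.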

Additional observations from a re-analysis of the deposited data

Results flagged for a closer look

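In the class of 9 X-Mus O-Cast cells, 40 measures were checked for a cell far from the others by Dixon's ratio. These were 34 members, 3 sums and the Mus share over the members, the allelic counts and the S phase level. Chance flags about 1 in 20 groups when the values are independent and normally distributed. Levels cannot be negative, some are skewed (Cdc25c had a median of 0.22 and a highest level of 6.64), and all measures share the same 9 cells. The number of flags therefore cannot be compared with that rate, and the check was not run over all genes. In 7 measures the highest cell stood apart. Cdk1 had a level of 9.22 in that cell and 5.22 in the next, beside a class median of 3.35. Aurkb had 12.7 and then 6.05, Cdc25c 6.64 and 2.94, and Ckap2l 3.53 and 1.06. Tacc3 had 3.40 and 1.65, and Ncapd2 6.03 and 2.51. The Mus share of the summed members was 58.6% in 1 cell and at most 49.1% in the other 8.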

How the results depend on the processing

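Of 137 recomputed values, 133 stayed within the spread of the reported value or, for counts and the range over cells, within 1.5 times of it. None reversed a fold that had passed the limit. The spread was the standard deviation over cells, members or pairs, which is a wide limit. Some settings could not change the value they were set against. The tally is therefore no measure of robustness, and the ranges are given instead. The median correlation over pairs of members was 0.12 to 0.25 and the number of members at 0.3 or above with the others 19 to 25, the correlation of the summed alleles 0.78 to 0.85, the median Mus share 46.7 to 47.3%, and the ratio of median sums 0.75 to 0.91 for X-Cast O-Mus and 0.89 to 1.11 for X-Mus O-Cast cells, which crosses 1. With the mean of log levels in place of the sum, the highest cell was 2.57 times the lowest. With a mean of at least 1 count, 1 of 36 members (G2e3) was higher in X-Cast O-Mus cells. Thinned to 71682 counts, 0 of 31 members were lower in X-Mus O-Cast cells (Cdk1 -0.98), and without the shallowest cell 1 of 34 (Kif11) was higher. The causes were not tested. Alternatives added after seeing the data left out Ccnb1 and Ccnb2, the 2 cells with the highest sums, each cell in turn (0 to 1 members higher and 0 to 3 lower) and mitochondrial counts. Levels near 0 in cells are limited by depth, where 3 counts in the shallowest cell are a level of 0.42. With 1 group of samples in the labels, no paired analysis was possible because no numbers are shared between groups.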
